A study of Mus musculus with 7 samples.

Results

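The genes described here are the mouse Fc gamma receptors Fcgr1, Fcgr2b, Fcgr3 and Fcgr4, their shared signalling chain Fcer1g, and the Fc receptor-like gene Fcrls. They were chosen by gene symbol. All 6 were found among 14594 gene rows of the count table, and all 6 passed the filter on low counts, which left 11874 genes. RNA came from cortical microglia of C57BL/6 mice, 12 weeks old, isolated by cell sorting. Every animal carried 1 Cx3Cr1 allele replaced by GFP, 1 Hoxb8 allele with IRES-Cre and 1 ROSA26 allele with CAG-LSL-tdTomato. Both groups thus come from animals with all 3 alterations, and the cells compared were separated by colour. Cells positive for GFP alone are called non-Hoxb8 microglia (4 libraries, numbered 5, 13, 21 and 25). Cells positive for GFP and tdTomato, in which Cre under the control of the Hoxb8 locus had at some time removed the stop in front of tdTomato, are called Hoxb8 microglia (3 libraries, numbered 6, 14 and 22). The labels name 4 animals for these 7 libraries and do not say which libraries share one, so the p-values measure the spread between libraries. The red label records past Cre activity and not present Hoxb8 expression.

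Fc gamma receptors bind the constant part of IgG, and so let macrophages and microglia sense immune complexes and engulf antibody-coated targets. The activating receptors signal through the ITAM of the Fcer1g chain, which is phosphorylated by Src family kinases and recruits Syk, whereas Fcgr2b carries an ITIM of its own that recruits the phosphatase SHIP-1 (Inpp5d) and dampens these signals. Fcrls belongs to the related Fc receptor-like family and is widely used in mice as a marker that separates microglia from other macrophages.

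On GRCm38 (GENCODE M21), all 6 genes are protein coding. Fcgr2b spans chromosome 1 from 170958617 to 170976547 on the minus strand, Fcgr4 from 171018920 to 171029761 on the plus strand and Fcgr3 from 171051174 to 171064935 on the minus strand. Fcer1g lies on the same chromosome, from 171229572 to 171234365. Fcgr1 spans chromosome 3 from 96282909 to 96293969 and Fcrls from 87250758 to 87263738 on the same chromosome, both on the minus strand. Fcgr2b and Fcgr3 are close copies in their extracellular part. The longest stretch that their coding sequences share without a difference was 129 bases, at coding positions 278 to 406 of Fcgr2b and 263 to 391 of Fcgr3, and it is printed because a 50-base read that falls within it cannot be given to either gene. In the genome it crosses an intron in both genes (chr1:170966674-170968081 and chr1:171054167-171057792).
Fcgr2b and Fcgr3, shared coding run: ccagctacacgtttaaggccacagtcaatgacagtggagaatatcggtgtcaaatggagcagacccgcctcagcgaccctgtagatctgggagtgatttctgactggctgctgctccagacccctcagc
Of all 50-base windows of the annotated Fcgr3 transcripts, 166 of 1733 (9.58%) were also in Fcgr2b, and these were 2.92% of the 5685 windows of Fcgr2b. In all, 6.95% of the Fcgr2b windows occurred in the transcripts of some other gene. Fcgr1, Fcgr4, Fcer1g and Fcrls had 0 windows in common with any other annotated gene. Fcgr2b also shares 155 exonic bases with Gm38204 on the opposite strand, and reads without strand cannot be divided between the 2 genes.

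Promoters were taken as 300 bases, from 250 before to 50 after the start annotated by RefSeq. Those of Fcgr1, Fcgr3, Fcgr4 and Fcrls are printed because they hold the letters GAGGAA on one of the strands. This is the core that PU.1, the lineage factor of myeloid cells, prefers. Sequences are from RefSeq on GRCm38.p6, in lower case, with these letters (or TTCCTC, where they lie on the other strand) in capitals. In Fcgr1 the palindromic STAT motif (TTC, a gap of 3, GAA) is also in capitals, since this receptor is known as an interferon-gamma target.
Fcgr1 (chr3:96293920-96294219, minus strand): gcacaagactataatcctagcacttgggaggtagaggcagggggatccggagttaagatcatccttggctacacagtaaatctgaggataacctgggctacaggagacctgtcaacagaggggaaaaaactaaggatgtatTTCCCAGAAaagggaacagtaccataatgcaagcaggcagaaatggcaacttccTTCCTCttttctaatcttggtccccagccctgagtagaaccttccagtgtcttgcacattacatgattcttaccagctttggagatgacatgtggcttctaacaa
Fcgr3 (chr1:171059354-171059653, minus strand): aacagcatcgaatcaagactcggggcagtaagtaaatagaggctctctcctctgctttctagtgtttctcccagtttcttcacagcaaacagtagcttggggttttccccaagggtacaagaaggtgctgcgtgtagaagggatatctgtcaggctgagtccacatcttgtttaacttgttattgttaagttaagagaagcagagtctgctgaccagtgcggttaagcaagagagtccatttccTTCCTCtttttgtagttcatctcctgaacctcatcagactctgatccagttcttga
Fcgr4 (chr1:171018676-171018975, plus strand): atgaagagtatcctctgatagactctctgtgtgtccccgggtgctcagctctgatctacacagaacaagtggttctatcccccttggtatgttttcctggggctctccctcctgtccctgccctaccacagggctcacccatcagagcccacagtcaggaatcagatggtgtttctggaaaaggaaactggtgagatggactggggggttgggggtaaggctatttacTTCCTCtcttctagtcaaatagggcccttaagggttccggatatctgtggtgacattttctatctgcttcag
Fcrls (chr3:87263475-87263774, minus strand): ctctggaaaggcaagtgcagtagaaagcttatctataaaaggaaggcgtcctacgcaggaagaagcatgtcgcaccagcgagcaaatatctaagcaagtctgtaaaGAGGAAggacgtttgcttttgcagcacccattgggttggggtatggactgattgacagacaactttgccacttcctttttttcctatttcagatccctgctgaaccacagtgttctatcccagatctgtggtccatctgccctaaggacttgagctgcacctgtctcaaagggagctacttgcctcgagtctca
The PU.1 core began 55 bases before the start of Fcgr1, 6 before that of Fcgr3, 22 before that of Fcgr4 and 144 before that of Fcrls, and the STAT motif began 109 bases before the start of Fcgr1. A further RefSeq start of Fcgr3 moved the window by a few bases and held the same core. Over all 32851 promoters in the table, 28.3% held GAGGAA on either strand, 8.3% held the STAT motif and 5.2% the AP-1 motif TGACTCA. The windows of Fcgr2b and Fcer1g held none of these 3 motifs, and no window of the 6 genes held TGACTCA. RefSeq starts can differ from the ends of the GENCODE spans given above. The windows of Fcgr2b (chr1:170976022-170976321) and Fcgr3 lie wholly inside those spans, and the RefSeq start of Fcrls also lies inside its span. For these 3 genes, promoters at the upstream ends of the GENCODE spans were not searched.

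Counts summed to between 5922972 and 7753577 per library. The 6 genes together took between 0.325% and 0.410% of the counts in non-Hoxb8 libraries and between 0.352% and 0.393% in Hoxb8 libraries. All 15 markers of homeostatic microglia passed the filter, which was applied once to all libraries together. Their levels summed to 47428 to 61283 CPM (TMM-normalised counts scaled by library size) in non-Hoxb8 and 53662 to 59767 in Hoxb8 libraries. Border-associated macrophages live in the meninges and around vessels. Their markers summed to 437 to 777 CPM in non-Hoxb8 and 682 to 1895 in Hoxb8 libraries (12 genes, all in the table). Most of the non-Hoxb8 sums was Stab1 alone, at 348 to 404 CPM in non-Hoxb8 and 329 to 418 CPM in Hoxb8 libraries (log2 fold change -0.04). Monocyte markers summed to 124 to 202 CPM and 301 to 673 CPM (8 of 9 genes in the table; Ly6c2 had 0 counts in Hoxb8 libraries). Most of these sums was Lyz2 alone, at 99.7 to 185 CPM in non-Hoxb8 and 185 to 469 CPM in Hoxb8 libraries. Neutrophil markers had 0 counts in non-Hoxb8 libraries and at most 3.10 CPM in Hoxb8 libraries (3 of 7 genes in the table, among them Cxcr2 at 0 in all), and NK cell markers stood at 0.127 to 0.412 and 2.54 to 7.29 CPM (3 of 5). The B cell marker Cd79b, the only 1 of 4 in the table, ranged from 1.76 to 28.0 and from 16.4 to 21.3 CPM. The part of other myeloid cells in the levels below was not tested, and in bulk RNA a change in the number of expressing cells and in RNA per cell cannot be told apart.

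None of the Fc receptor genes passed the test between Hoxb8 and non-Hoxb8 microglia. In edgeR's quasi-likelihood test, 0 of the 6 genes passed at an adjusted p below 0.05, and 0 of the 6 had an unadjusted p below 0.05. Over all 11874 genes, 0.0337% passed as higher and 0% as lower in Hoxb8 microglia, and 1.95% and 1.57% did so before adjustment. DESeq2 and limma-voom also called 0 of the 6. In each of the 6 genes the values of both groups overlapped, while 2.48% of all genes were higher and 2.08% lower in Hoxb8 libraries without overlap. The log2 fold changes of the 6 genes had a median of -0.04, with 2 above 0, beside a median of 0.00 and 50.0% above 0 over all genes tested.

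Fcgr1 (CD64) is the high-affinity activating receptor for IgG. It stood at 302, 285, 261 and 341 CPM in non-Hoxb8 libraries 5, 13, 21 and 25 and at 298, 271 and 343 CPM in Hoxb8 libraries 6, 14 and 22. The ranges of both groups nearly coincided, and the lowest and highest libraries, 21 and 22, are neighbours in number. Means were 304 ± 36.7 CPM (SD, n = 3) in Hoxb8 and 297 ± 33.6 CPM (SD, n = 4) in non-Hoxb8 microglia, which is 0.03 ± 0.16 (SE) on the log2 scale (edgeR adjusted p = 0.9996). The 95% interval of the fold ran from 0.805 to 1.30.

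Fcgr3 (CD16), a low-affinity activating receptor, was the most abundant of the 4 Fc gamma receptors. It stood at 728, 510.1, 480.4 and 769 CPM in non-Hoxb8 libraries 5, 13, 21 and 25 and at 661, 574 and 552 CPM in Hoxb8 libraries 6, 14 and 22. All 3 Hoxb8 values lay inside the non-Hoxb8 range, which libraries 21 and 25 set. Means were 596 ± 57.5 CPM (SD, n = 3) and 622 ± 148 CPM (SD, n = 4), or -0.06 ± 0.18 (SE) on the log2 scale (edgeR adjusted p = 0.9996), with a 95% interval of the fold from 0.735 to 1.25.

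Fcgr4 (CD16-2), an activating receptor that blood monocytes and neutrophils carry in the mouse, was detected at a low level in every library. Counts were 70, 72, 13 and 52 in non-Hoxb8 libraries 5, 13, 21 and 25, which is 9.61, 9.17, 2.08 and 8.93 CPM, and 52, 53 and 18 in Hoxb8 libraries 6, 14 and 22, or 6.95, 7.15 and 2.43 CPM. The 2 low libraries were 21 and 22, 1 from each group. Their exact 95% Poisson intervals, which take reads as independent and cover counting error only, were 1.11 to 3.56 and 1.44 to 3.83 CPM. Both lay below those of the other 5 libraries, the lowest of which began at 5.19 CPM. The log2 fold change between groups was -0.44 ± 0.67 (SE, edgeR adjusted p = 0.9996), and its 95% interval of the fold, 0.276 to 1.98, spans 1. Without libraries 21 and 22, a choice made after the values were seen, the 2 remaining Hoxb8 libraries (mean 7.05 CPM) lay below the 3 non-Hoxb8 libraries (mean 9.24 CPM), as did 8.29% of all genes, and the gene did not pass (log2 fold change -0.39).

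Fcgr2b (CD32), the inhibitory receptor, stood at 293, 194, 172 and 288 CPM in non-Hoxb8 libraries 5, 13, 21 and 25 and at 254, 257 and 188 CPM in Hoxb8 libraries 6, 14 and 22. Library 21 was lowest and library 22 second lowest, and both groups spanned much of the same range. Means were 233 ± 38.8 CPM (SD, n = 3) and 237 ± 62.6 CPM (SD, n = 4), a log2 difference of -0.02 ± 0.21 (SE; edgeR adjusted p = 0.9996) and a 95% interval of the fold from 0.721 to 1.34.

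Fcer1g, the ITAM-bearing chain without which Fcgr1, Fcgr3 and Fcgr4 do not signal, stood at 1629, 911, 1039 and 1388 CPM in non-Hoxb8 libraries 5, 13, 21 and 25 and at 1451, 1440 and 1028 CPM in Hoxb8 libraries 6, 14 and 22. Libraries 13, 21 and 22 were low and the other 4 high, a division that cut across both groups. Means were 1306 ± 241 CPM (SD, n = 3) and 1242 ± 328 CPM (SD, n = 4), a log2 difference of 0.07 ± 0.20 (SE; edgeR adjusted p = 0.9996) with a 95% interval of the fold from 0.788 to 1.40.

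Fcrls, the microglial Fc receptor-like gene, stood at 1198, 1587, 1124 and 1467 CPM in non-Hoxb8 libraries 5, 13, 21 and 25. In Hoxb8 libraries 6, 14 and 22 it stood at 1315, 1270 and 1300.3 CPM, all within the non-Hoxb8 range. Means were 1295 ± 23.2 CPM (SD, n = 3) and 1344 ± 219 CPM (SD, n = 4), a log2 difference of -0.05 ± 0.15 (SE; edgeR adjusted p = 0.9996) with a 95% interval of the fold from 0.776 to 1.20. Whether the spread differed between groups was not tested.

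**Figure D1:**
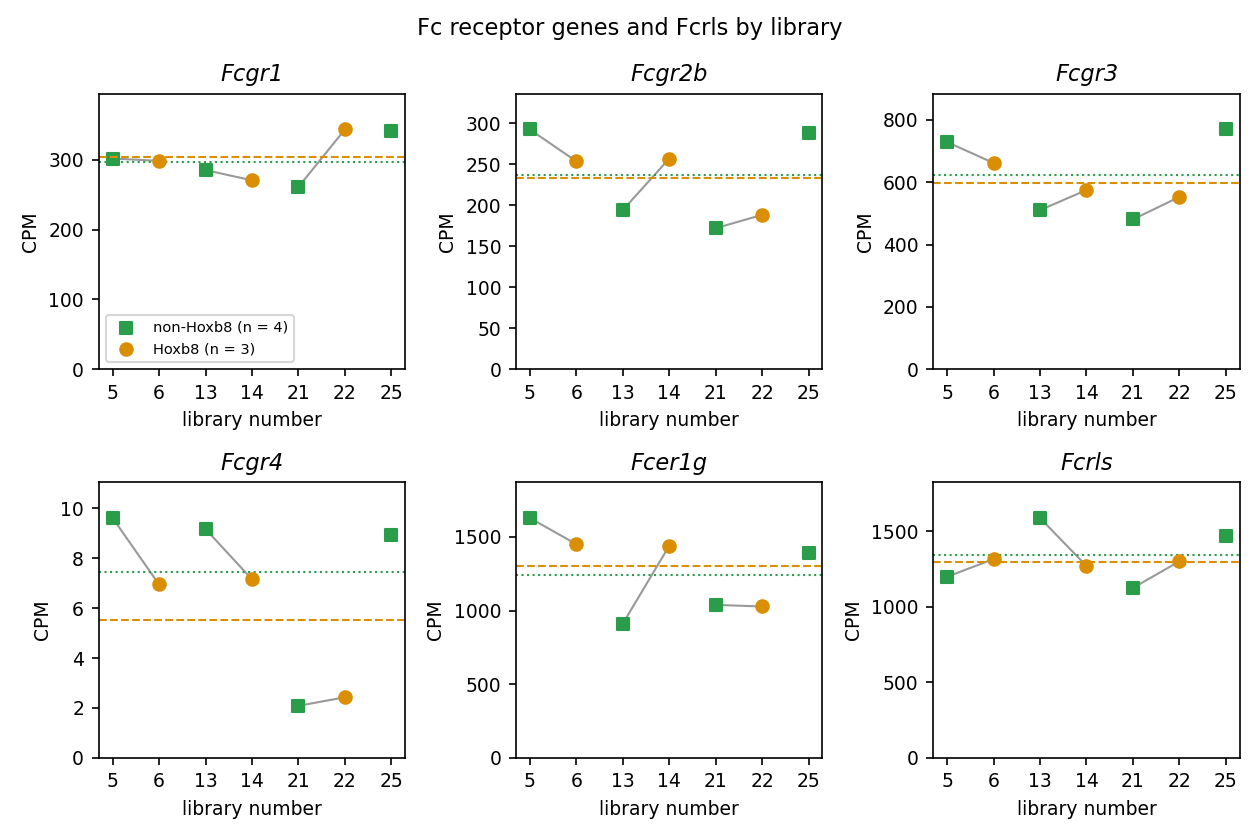
Level of each gene in CPM (y axis, from 0) by library number (x axis), with squares for the 4 non-Hoxb8 and circles for the 3 Hoxb8 libraries, dotted and dashed lines at the group means and grey lines between libraries with adjacent numbers. The groups overlap in all 6 panels, and Fcgr4 is low in libraries 21 (2.08 CPM) and 22 (2.43 CPM).

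Libraries with adjacent numbers (5 and 6, 13 and 14, 21 and 22) may come from the same animals, although the labels do not say so. Within these pairs, the log2 difference of Hoxb8 over non-Hoxb8 was -0.02, -0.08 and 0.40 for Fcgr1, -0.21, 0.40 and 0.13 for Fcgr2b and -0.14, 0.17 and 0.20 for Fcgr3. It was -0.47, -0.36 and 0.22 for Fcgr4, -0.17, 0.66 and -0.02 for Fcer1g and 0.13, -0.32 and 0.21 for Fcrls. None of the 6 genes had the same sign in all 3 pairs, whereas 12.6% of all genes were higher and 12.1% lower in the Hoxb8 library of every pair. The geometric mean of Fcgr4 over a pair was 8.17 CPM for libraries 5 and 6, 8.10 CPM for 13 and 14 and 2.25 CPM for 21 and 22, so that only the last pair stood apart. With the pairs as a block, edgeR again called 0 of the 6 genes (0 at an unadjusted p below 0.05; adjusted p = 0.9998 for each), beside 0.362% of all genes called higher and 0% lower (3.01% and 2% before adjustment), with log2 fold changes between -0.22 for Fcgr4 and 0.16 for Fcer1g.

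**Figure D2:**
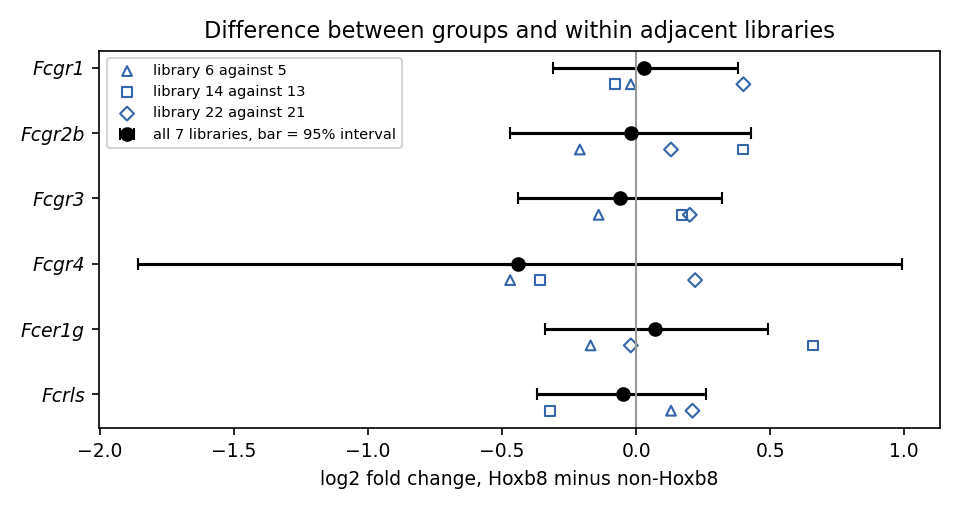
Log2 fold change of Hoxb8 over non-Hoxb8 microglia (x axis) for each gene (y axis), with filled circles and bars for the estimate and 95% interval from all 7 libraries and open symbols for the 3 pairs of libraries with adjacent numbers. Every interval spans 0, and the widest is that of Fcgr4 (-1.86 to 0.99).

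Levels were compared between genes per kilobase of annotated exon. By this measure Fcer1g was highest, with 1452 ± 312 CPM per kilobase (SD over 7 libraries), which ranked 11 among 11410 tested genes with a length. Fcrls followed with 567 ± 67.5 CPM per kilobase (rank 30), Fcgr3 with 352 ± 63.6 (rank 57) and Fcgr1 with 116 ± 12.4 (rank 213). Fcgr2b stood at 40.6 ± 8.57 CPM per kilobase (rank 823) and Fcgr4 at 5.27 ± 2.50 (rank 6113). No value of one gene in this order overlapped with that of the next. The place of Fcgr2b depends on its length, however, because its exons sum to 5790 bases over all annotated transcripts. On the shortest principal transcript of each gene (1578 bases for Fcgr2b) its level was 149 CPM per kilobase, above the 116 of Fcgr1, with ranges of 109 to 185 and 101 to 133 that overlapped. On that scale the ranges of Fcrls (495 to 698) and Fcgr3 (357 to 571) overlapped too.

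The balance between activating and inhibitory receptors within a library is given as a ratio of counts per kilobase of annotated exon (0.5 counts added), which needs no normalisation between libraries. Fcgr3 over Fcgr2b was 8.30, 8.76, 9.30 and 8.89 in non-Hoxb8 libraries 5, 13, 21 and 25 and 8.69, 7.45 and 9.78 in Hoxb8 libraries 6, 14 and 22. Both the lowest and the highest ratio were in Hoxb8 libraries, and the difference between group means was -0.04 on the log2 scale, smaller than the SD of 0.20 in Hoxb8 and 0.07 in non-Hoxb8 libraries. Fcgr1 over Fcgr2b was 2.31, 3.28, 3.39 and 2.64 against 2.63, 2.35 and 4.08, again with overlap (difference of log2 means 0.03). Fcgr4 over Fcgr2b was 0.152, 0.219, 0.0579 and 0.144 against 0.127, 0.129 and 0.0610, with libraries 21 and 22 apart from the rest. These ratios are descriptions without a test. Fcgr2b has sequence in common with Fcgr3, and the effect of this on the ratios was not tested. Ratios over Fcgr2b also scale with the length taken for Fcgr2b, which is the same in every library. On the shortest principal transcripts, Fcgr1 was below Fcgr2b in every library but 22 (117 against 185 CPM per kilobase in library 5). Fcgr3 stayed above Fcgr2b in all libraries on that scale.

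Set against the shared chain, Fcgr3 over Fcer1g ranged from 0.201 to 0.282 over all 7 libraries and Fcgr1 over Fcer1g from 0.0626 to 0.113. Library 14 was lowest for Fcgr3, library 5 for Fcgr1, and the groups overlapped in both. Fcgr4 over Fcer1g ranged from 0.00145 in library 21 to 0.00705 in library 13. Fcgr4 over Fcgr3, both activating receptors of one cluster, was 0.00623 in library 21, 0.00624 in library 22 and between 0.0147 and 0.0250 in the other 5 libraries. Fcrls over Fcgr1 lay between 4.20 and 6.17, with library 13 highest.

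**Figure D3:**
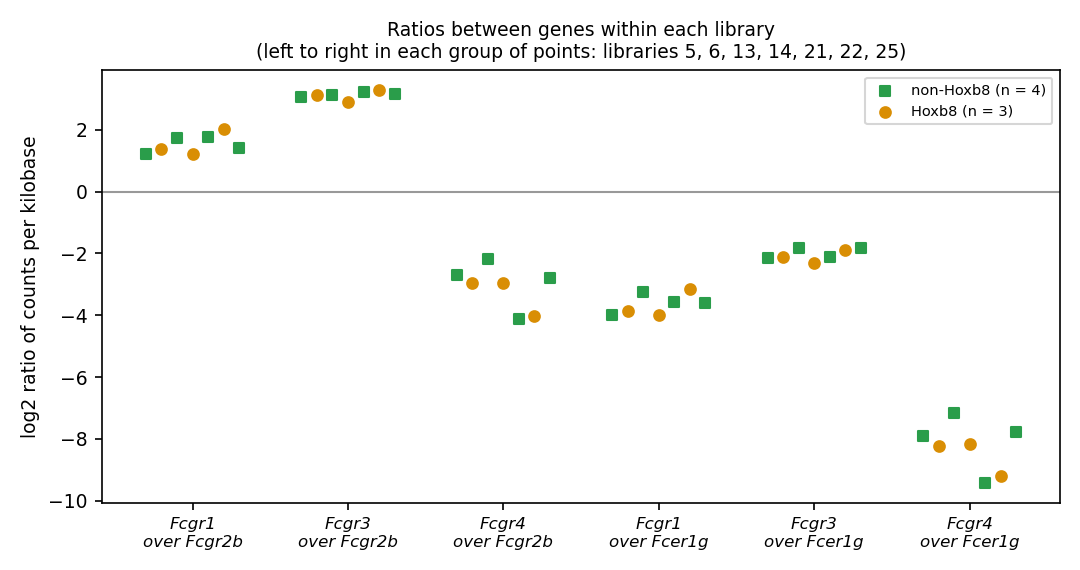
Log2 ratio of counts per kilobase (y axis) for activating receptors over the inhibitory Fcgr2b and over the Fcer1g chain (x axis), with 1 point a library, squares for non-Hoxb8 and circles for Hoxb8 microglia. Fcgr3 over Fcgr2b varies least (2.90 to 3.29), and both ratios of Fcgr4 drop in libraries 21 and 22.

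Spread between libraries differed among the 6 genes. The highest library exceeded the lowest 1.32-fold for Fcgr1, 1.41-fold for Fcrls, 1.60-fold for Fcgr3, 1.70-fold for Fcgr2b, 1.79-fold for Fcer1g and 4.61-fold for Fcgr4. The biological coefficient of variation that edgeR fitted was 0.219 for both Fcgr1 and Fcrls, a value that 2.40% and 2.28% of all genes did not exceed, and 0.605 for Fcgr4, against a median of 0.377 over all genes. This measure falls with the level of a gene, and Fcgr4 was the only member near the middle of the range of levels.

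Across the 7 libraries, likeness of pattern was measured as the root mean square difference of log2 CPM after centring each gene on its own mean. Among the 6 genes, Fcgr2b and Fcgr3 were the closest pair (0.115). Of the 11873 genes compared, Fcgr3 ranked 9 in nearness to Fcgr2b, whereas Fcgr2b ranked 35 in nearness to Fcgr3. The part of the sequence shared by Fcgr2b and Fcgr3 in this likeness was not tested. Fcer1g was nearest to Fcgr2b (0.123, rank 19), whereas Fcgr1 and Fcrls were nearest to each other (0.166) but at ranks 338 and 257. Their root mean square deviations from their own means were smaller (0.141 and 0.156), so each lay nearer to a flat profile than to the other. Over all genes, those nearest were Pik3cb, Wbp1l and Il10ra to Fcgr1, Lman2, Copa and Rps2 to Fcgr2b, and Ctdnep1, Tmed10 and Golim4 to Fcgr3. Postn, Slc10a7 and Sgtb were nearest to Fcgr4 (0.295 to 0.355), Msl2, Mbd2 and Ubap2l to Fcer1g, and Sparc, Daglb and Rab10 to Fcrls (0.0498 to 0.0656). With 7 libraries and flat profiles, these distances describe the libraries alone.

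Genes that carry the signal from Fc receptors were tested in the same way. Of 29 genes of ITAM and ITIM signalling, 27 were tested and 0 passed in either direction (median log2 fold change 0.01, 14 above 0). Syk, the kinase that docks on the phosphorylated ITAM, stood at 167 ± 31.1 CPM (SD, n = 3) in Hoxb8 against 171 ± 31.5 CPM (SD, n = 4) in non-Hoxb8 microglia (log2 fold change -0.03 ± 0.20). The Src family kinase Lyn had a log2 fold change of -0.04 ± 0.18. Of the same family, Fyn and Fgr leaned higher (0.84 ± 0.42 and 0.71 ± 0.54), and the remaining kinase of the list leaned lower. Neither Fyn nor Fgr passed with or without the pairs. With the pairs as a block, their log2 fold changes were 1.02 and 1.3 (edgeR unadjusted p = 0.02723 and 0.03218). In that fit 3.01% of all genes were higher at an unadjusted p below 0.05. Inpp5d, the phosphatase that acts below Fcgr2b, stood at 691 ± 54.3 against 788 ± 78.4 CPM (log2 fold change -0.19 ± 0.14), and Tyrobp, the other ITAM adaptor of microglia, at 638 ± 33.4 against 648 ± 104 CPM. Plcg2, the phospholipase recruited after Syk, was the only gene of the list without overlap. It stood at 115, 107 and 117 CPM in Hoxb8 libraries 6, 14 and 22 against 127, 149, 165 and 119 CPM in non-Hoxb8 libraries 5, 13, 21 and 25. Over all genes tested, 2.08% were lower and 2.48% higher in Hoxb8 libraries without overlap. Plcg2 did not pass (log2 fold change -0.31 ± 0.19, edgeR adjusted p = 0.9996).

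The list of other immunoglobulin receptors and their partners held 15 symbols, of which Fcmr and Faim3 name the same gene. Of these symbols 7 had a row in the table, 4 were tested and 0 passed (median log2 fold change 0.03). Fcgrt, the neonatal Fc receptor that recycles IgG, stood at 25.3 ± 2.83 CPM (SD, n = 3) against 26.4 ± 6.50 CPM (SD, n = 4), and its partner B2m had a log2 fold change of 0.13 ± 0.16. Trim21, a receptor for antibody that has entered the cytosol, stood at 43.2, 52.4 and 62.1 CPM in Hoxb8 libraries 6, 14 and 22 and at 17.7, 34.0, 43.1 and 34.7 CPM in non-Hoxb8 libraries 5, 13, 21 and 25. The groups were apart by the small gap between libraries 6 and 21, and 2.48% of all genes were higher without overlap. Trim21 did not pass (log2 fold change 0.70 ± 0.31, edgeR adjusted p = 0.9996). Fcrl1, a B cell gene of the family of Fcrls, stood at 43.7 ± 16.9 against 51.5 ± 15.5 CPM.

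Of 14 other receptors that pair with the Fcer1g chain, 8 were in the table and 4 were tested, with a median log2 fold change of 1.00 and all 4 above 0. Only Cd300ld, an activating receptor of myeloid cells, passed and rose in Hoxb8 microglia, from 0.961, 0.637, 1.44 and 1.03 CPM in non-Hoxb8 libraries 5, 13, 21 and 25 to 7.62, 79.8 and 15.6 CPM in libraries 6, 14 and 22 (log2 fold change 5.07 ± 0.75, edgeR adjusted p = 0.0281). Most of its mean rests on library 14, which was also highest in border-associated macrophage markers (1895 CPM in sum). Cd300ld kept its direction but lost the call in edgeR without library 14 (log2 fold change 3.50, adjusted p = 0.7504), and also when any 1 of the 4 non-Hoxb8 libraries was left out (adjusted p from 0.2054 to 0.4515), where its log2 fold change stayed between 4.89 and 5.28. With the pairs as a block it passed in edgeR (log2 fold change 4.41, adjusted p = 2.6e-04). Limma-voom did not call it either (adjusted p = 0.9979), whereas DESeq2 did (adjusted p = 2.5e-09). Clec4n (Dectin-2), a receptor for fungal mannans, had a log2 fold change of 1.65 ± 1.17, Pira6 of 0.34 ± 1.14 and Lilra5 of 0.27 ± 0.40, and none of these 3 passed. Levels of Clec4n and Pira6 were low, with means of 6.24 and 1.30 CPM in Hoxb8 and 1.97 and 1.01 CPM in non-Hoxb8 libraries. Library 14 was highest for Clec4n, at 13.4 CPM. Whether Cd300ld or Pira6 shares reads with related genes was not tested. Fcer1g itself stood within its non-Hoxb8 range in library 14 (1440 CPM).

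Around the receptor cluster and Fcer1g on chromosome 1, 19 of 23 neighbouring genes were tested and 0 passed (median log2 fold change 0.11, 12 above 0). Sdhc, Cfap126 and Pcp4l1 had log2 fold changes of 0.23 ± 0.23, 0.59 ± 0.88 and -1.44 ± 1.19. Levels of Cfap126 and Pcp4l1 were low, with means of 6.69 and 0.854 CPM in Hoxb8 and 4.44 and 2.34 CPM in non-Hoxb8 libraries. Of 15 homeostatic microglia genes 0 were called (median log2 fold change 0.00), and P2ry12 and Tmem119 had log2 fold changes of 0.12 and 0.00. In contrast, 11 of 12 border-associated macrophage markers were above 0 (median log2 fold change 2.34), although edgeR called 0 of them without the pairs, where 10 had an unadjusted p below 0.05 and limma-voom called no gene at all. With the pairs as a block 8 rose (Mrc1, Cd163, Lyve1, F13a1, Cbr2, Clec12a, Dab2 and Clec10a). Mrc1, the mannose receptor, stood at 242 ± 172 CPM (SD, n = 3) against 61.4 ± 36.9 CPM (SD, n = 4). All 7 tested monocyte markers were above 0 (median 3.36, also with Spn and Treml4 at their lower bounds against 3 counts over the group). Itga4 passed without the pairs (edgeR adjusted p = 0.00673), and Lyz2, Itgal, Spn and Itga4 passed with them, while Ccr2 had a log2 fold change of 1.40 ± 0.32. Without library 5 the log2 fold change of Itga4 was again 3.36, but it did not pass (edgeR adjusted p = 0.08516). In library 14, which had the highest sums of border-associated macrophage and monocyte markers (1895 and 673 CPM), Fcgr1, Fcgr3, Fcgr4 and Fcrls stood below their non-Hoxb8 means and Fcgr2b and Fcer1g above them. Both of the latter stood within their non-Hoxb8 ranges.

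**Figure D4:**
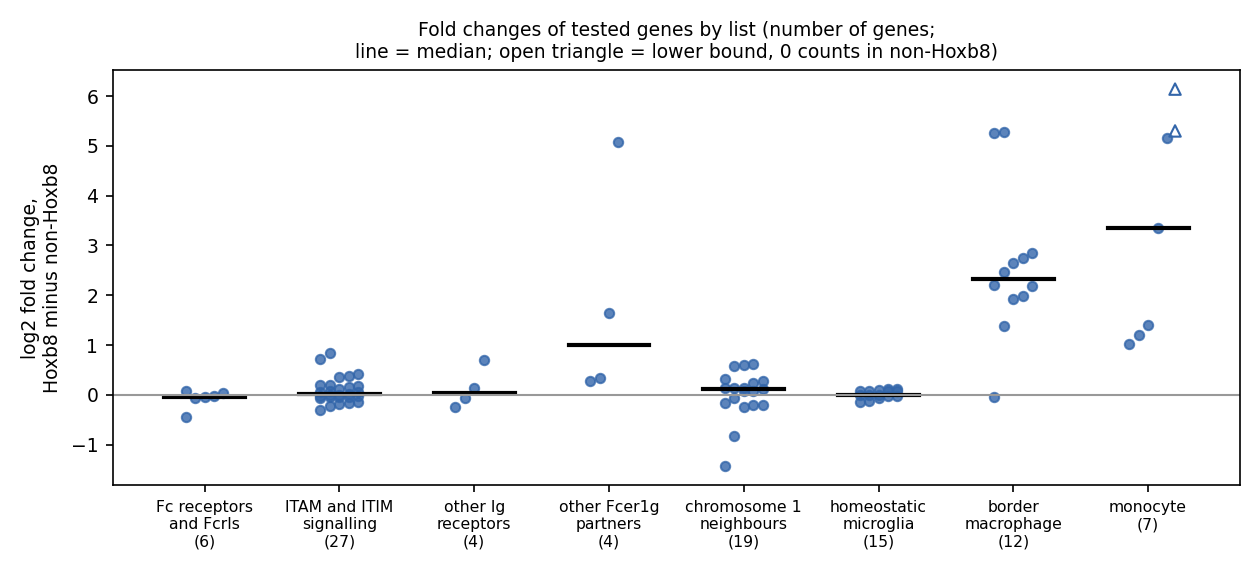
Log2 fold change of Hoxb8 over non-Hoxb8 microglia (y axis) for the tested genes of each list (x axis, number of genes in brackets), with a line at the median and open triangles for lower bounds of genes with 0 counts in non-Hoxb8 libraries. The medians are -0.04 for the Fc receptor genes, 0.01 for their signalling genes, 2.34 for border macrophage markers and 3.36 for monocyte markers.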

How the data were processed

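The authors deposited raw counts for each gene symbol in 7 libraries. Per the labels' protocols, sorted cells went through a Clontech low-input kit, and single-end reads of 50 bases, without strand, were mapped by STAR 2.4.1c to GRCm38 (GENCODE M5). Tools listed without a version in the submitters' processing notes are featureCounts, Subread and DESeq2. How the 14616 rows were selected is not stated.

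Rows named by spreadsheet dates (22, with 0.120% to 0.151% of counts) were left out. The test was edgeR 4.0.16 (R 4.3.3; TMM, filterByExpr, robust glmQLFit, glmQLFTest) on all 11874 genes, adjusted by Benjamini-Hochberg at 0.05. The SE is the log2 fold change over the square root of F, and 95% intervals use the degrees of freedom of the test. Log2 CPM for likeness had a prior count of 2. Alternatives were DESeq2 1.42.0, limma-voom (limma 3.58.1), other normalisations and filters, and left-out libraries. The test was checked on simulated counts with a smaller spread than in these data and with large folds only. That check does not cover the small differences reported here. Reads carry no molecular identifiers, so copies of the same molecule cannot be told apart. The Poisson intervals of Fcgr4 cover counting error only, take reads as independent and may be too narrow. The intervals of fold changes carry the spread between libraries. All libraries differed by more than the sampling noise of independent reads (lowest chi-square 17.1 per degree of freedom).

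Adjacent library numbers were treated as possible pairs, since their deviations around group means had correlations of 0.18, 0.28 and 0.19. Libraries of different groups without adjacent numbers had correlations from -0.21 to 0.06. These correlations come from the same counts as the calls made with the pairs as a block. The labels do not state this pairing. Library 25 has no partner. The members and lists were chosen with earlier results of these data known. Named genes were the 6 members, the 3 nearest genes to each, the first 3 tested genes of each list and every list gene past the test with or without pairs, apart from 2 that are not reported here. Inpp5d, Tyrobp, Plcg2, Fyn, Fgr, Stab1, Fcrl1, Fcmr, Faim3, Cxcr2 and Ly6c2 were named after their values were seen. Mast cell and basophil markers had no row in the table. RefSeq promoters matched all 6 members.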

Additional observations from a re-analysis of the deposited data

Results flagged for a closer look

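Fcgr4 in non-Hoxb8 microglia had 1 library far from the other 3. Library 21 stood at 2.08 CPM against 8.93 to 9.61 CPM, a gap of 0.952 of the group's range on the log2 scale, above Dixon's 95% critical value of 0.829 for 4 samples. This was 1 of 14 measures searched, of which 0.7 are expected past the value by chance. The neighbouring Hoxb8 library 22 was also low, at 2.43 CPM, and a cause was not tested.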

How the results depend on the processing

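None of the 6 genes passed the test in any of 18 alternatives (adjusted p from 0.9877 to 1), and Fcgr4 kept its sign in all 18 (-0.75 to -0.08 when 1 library was left out). The other signs changed around 0. With the replicate block the log2 fold changes were 0.11 for Fcgr2b, 0.08 for Fcgr3 and 0.01 for Fcrls in edgeR, and 0.11, 0.08 and 0.01 in DESeq2, and the block changed no call of the 6 genes. Limma-voom gave 0.01 for Fcgr2b. Without libraries 13 and 14 Fcer1g was at -0.13 and Fcrls at 0.04, without 21, 22 and 25 Fcgr1 was at -0.05 and Fcgr2b at 0.06, and without 21 and 22, chosen after seeing the data, Fcgr1 was at -0.12. With 1 library left out, Fcgr1 ranged from -0.06 to 0.11, Fcgr2b from -0.15 to 0.11, Fcgr3 from -0.17 to 0.06, Fcer1g from -0.05 to 0.23 and Fcrls from -0.13 to 0.04. No difference in log2 ratio moved by more than the SD pooled over both groups, but with 1 library left out those of Fcgr3 over Fcgr2b (-0.13 to 0.07), Fcgr1 over Fcgr2b (-0.21 to 0.19), Fcgr1 over Fcer1g (-0.32 to 0.10), Fcgr4 over Fcgr3 (-0.74 to 0.12) and Fcrls over Fcgr1 (-0.14 to 0.03) spanned 0. Over all genes, edgeR called 4 higher and 0 lower, DESeq2 21 and 5, limma-voom 0 and 0, edgeR with the replicate block 43 and 0, and DESeq2 with it 48 and 1. A minimum of 10 counts in every library left 1 higher, and the same number was left without libraries 21 and 22. Without 13 and 14 there were 2 higher, without 21, 22 and 25 there were 0, and with 1 library left out between 0 (without non-Hoxb8 replicate 1, library 5) and 6, with 2 left without Hoxb8 replicate 2 (library 14). The cause of these shifts was not tested. Fcgr4 had the fewest counts of the 6 genes, 13 to 72 per library. The Poisson intervals of libraries 21 and 22 lay below those of the rest, but they take reads as independent.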
